A study of Mus musculus with 10 samples.

Results

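The set described here held 7 adhesion genes of 19938 genes measured: Ncam2, Dscam, Cxadr and Jam2, which lie in the duplicated interval of mouse chromosome 16 (Mmu16) and are present in 3 copies in Dp1Yey mice, and Ncam1, Dscaml1 and Jam3, homologues of 3 of them that lie on Mmu9 in 2 copies. They were chosen by name, and all 7 were carried by 1 probe set annotated to a single gene. Expression was measured in the whole hippocampus, left and right together, of male mice aged 16 weeks on Affymetrix Mouse Gene 1.0 ST arrays, with 1 mouse per array. The 5 Dp1Yey mice carried a duplication of Mmu16 from Lipi to Zbtb21, and the 5 controls were littermates without it. The labels give a C57BL/6N background for both groups, whereas the methods name C57BL/6J for the line. Since the duplication spans 143 measured genes, it changes the dose of every adhesion gene in it at once and isolates none of them.

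The encoded proteins belong to the immunoglobulin superfamily, whose extracellular domains bind the same protein or a relative on a facing cell. NCAM1 and NCAM2 are neural cell adhesion molecules of axons and synapses, and NCAM1 is the main brain carrier of polysialic acid, a sugar chain that loosens contacts. DSCAM and DSCAML1 keep the neurites of one neuron and the cell bodies of one type apart, and DSCAM also binds the guidance cue netrin. JAM2 (JAM-B) and JAM3 (JAM-C) are junctional adhesion molecules that bind each other at contacts of endothelial and other cells, and CXADR, the coxsackievirus and adenovirus receptor, is a relative of the JAMs found at tight junctions.

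All 4 triplicated adhesion genes were higher in Dp1Yey hippocampi than in control hippocampi, and none of their 3 homologues in 2 copies passed the test, which called 0.5% of the genes outside the interval. Jam2 rose 1.54-fold, Ncam2 1.42-fold, Dscam 1.32-fold and Cxadr 1.15-fold. Ncam1, Dscaml1 and Jam3 stood at 0.984-fold, 0.975-fold and 0.999-fold. In each of the 4 triplicated genes the lowest Dp1Yey mouse lay above the highest control mouse. Among all 19938 genes, limma called 0.687% higher in Dp1Yey at an adjusted p under 0.05, and in 2.4% the Dp1Yey mice lay wholly above the control mice. Among the 96 interval genes above background, the shares were 61.5% and 67.7%, so that a rise was the common outcome for a triplicated gene. The background level, under which 90% of 1015 olfactory receptor genes fell, was 5.45 on the log2 scale, and all 7 adhesion genes lay above it.

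**Figure D1:**
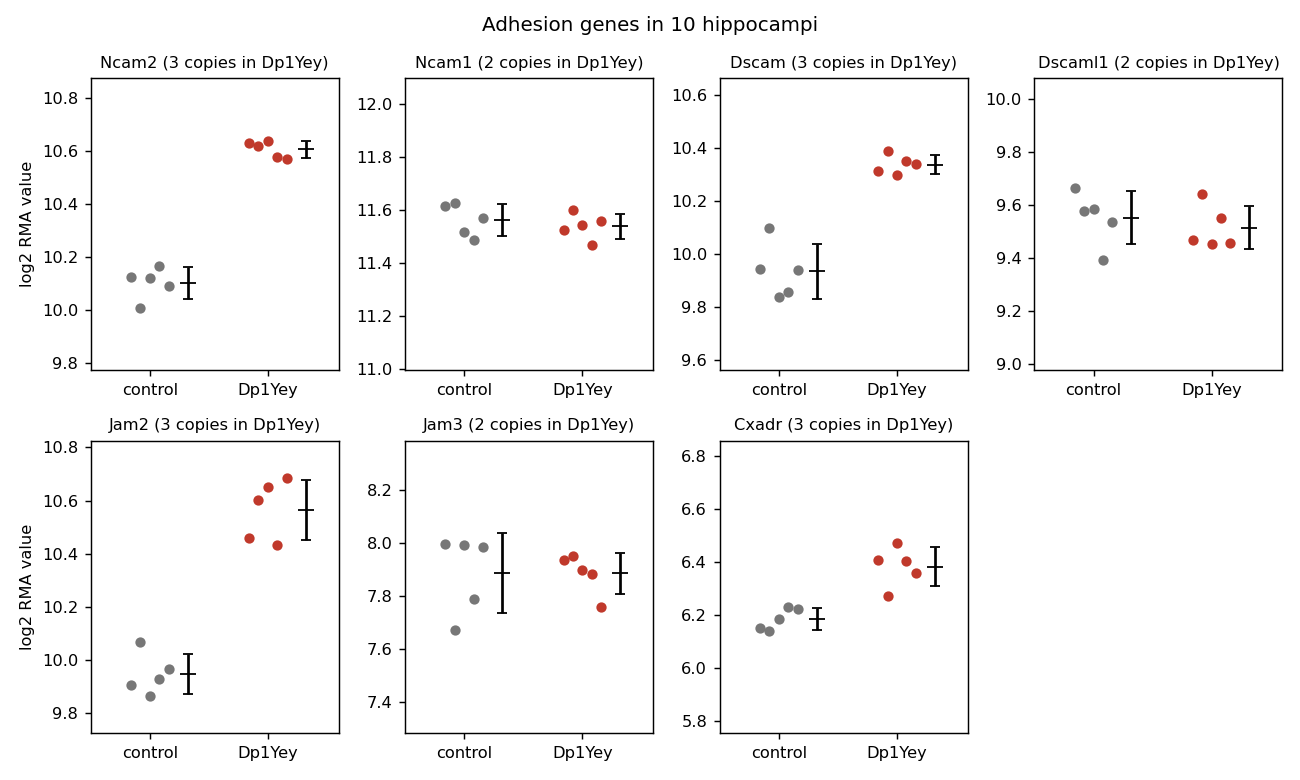
Log2 RMA value of each adhesion gene on each of the 10 arrays (y axes span the same number of log2 units), grey for the 5 control and red for the 5 Dp1Yey mice, with the mean and SD beside the points. The groups are apart in Ncam2, Dscam, Jam2 and Cxadr and overlap in Ncam1, Dscaml1 and Jam3.

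Ncam2 and Dscam have their start sequences in the RefSeq table for GRCm38.p6 (mm10) used here, and these are shown because both starts lie inside the duplicated interval and both genes rose in Dp1Yey. Each run is the 250 bases before a transcript start, 5′ to 3′ on the strand of the gene, with the GC box letters GGGCGG or CCGCCC in capitals. Ncam2 lies on the plus strand (chr16:81200447-81200696) and Dscam on the minus strand (chr16:97170736-97170985, inside the outermost end of the annotated gene).
Ncam2: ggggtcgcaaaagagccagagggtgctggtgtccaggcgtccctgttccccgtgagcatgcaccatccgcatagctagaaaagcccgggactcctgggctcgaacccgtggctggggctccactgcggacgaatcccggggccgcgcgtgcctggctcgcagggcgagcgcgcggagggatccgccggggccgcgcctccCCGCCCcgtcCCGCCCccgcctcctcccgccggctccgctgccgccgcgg
Dscam: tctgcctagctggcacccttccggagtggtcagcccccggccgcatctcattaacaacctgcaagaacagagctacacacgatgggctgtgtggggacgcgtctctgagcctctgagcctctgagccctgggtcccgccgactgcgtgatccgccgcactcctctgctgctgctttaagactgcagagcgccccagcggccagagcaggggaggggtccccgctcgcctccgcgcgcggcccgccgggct
The Ncam2 window held 2 GC boxes and the Dscam window 0. Of 32851 promoter windows of this length, 32.7% held a GC box on either strand. G and C made up 75.2% of the Ncam2 window and 68% of the Dscam window, against a median of 52.4% over all windows. The Ncam2 window held 32 CG dinucleotides and the Dscam window 21, against a median of 6. Neither held the TATA box letters TATAAA, found on either strand in 12.4% of windows, or CCAAT, found in 33.8%.

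The first comparison set Ncam2 beside Ncam1. Ncam2 (Entrez 17968, 81200697 to 81624290 on Mmu16, 424 kb) had log2 values of 10.63, 10.62, 10.64, 10.58 and 10.57 in Dp1Yey replicates 1 to 5 and of 10.13, 10.01, 10.12, 10.17 and 10.09 in control replicates 1 to 5. The Dp1Yey values lay close together, and the lowest was 0.40 log2 units above the highest control. Dp1Yey mice averaged 10.61 ± 0.033 and controls 10.10 ± 0.060 (mean ± SD, 5 arrays per group), a log2 difference of 0.50 (95% CI 0.43 to 0.58, adjusted p = 4.68e-05, limma). By p, Ncam2 ranked 2 among all genes. Ncam1 (Entrez 17967, 49502129 to 49799393 on Mmu9) had log2 values of 11.52, 11.60, 11.54, 11.47 and 11.56 in Dp1Yey and of 11.62, 11.62, 11.52, 11.48 and 11.57 in control mice. These groups overlapped, and the log2 difference was -0.024 (95% CI -0.11 to 0.060, adjusted p = 0.745, limma).

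Within each array, the log2 ratio of Ncam2 to Ncam1 was then compared between the groups. It lay between -0.99 and -0.89 in Dp1Yey and between -1.62 and -1.32 in control mice, so that no control mouse reached the Dp1Yey range. The level of 1 probe set cannot be set against that of another, but the change of their ratio can, and the ratio was 0.53 log2 units higher in Dp1Yey (exact permutation p = 0.00794, two-sided, n = 5 each). This is the smallest p that 5 mice against 5 allow, and after adjustment over the 3 pairs compared it was also 0.00794.

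For Dscam and Dscaml1 the pattern was alike in direction. Dscam (Entrez 13508, 96587452 to 97171113 on Mmu16), the longest of the 7 genes at 584 kb, had log2 values of 10.31, 10.39, 10.30, 10.35 and 10.34 in Dp1Yey and of 9.94, 10.10, 9.84, 9.85 and 9.94 in control mice. Control replicate 2 was the highest control and lay 0.20 below the lowest Dp1Yey mouse. Dp1Yey mice averaged 10.34 ± 0.035 and controls 9.93 ± 0.10 (mean ± SD, 5 arrays per group), a log2 difference of 0.40 (95% CI 0.30 to 0.51, adjusted p = 0.00112, limma). Dscaml1 (Entrez 114873, 45427433 to 45753713 on Mmu9) had log2 values of 9.47, 9.64, 9.45, 9.55 and 9.46 in Dp1Yey and of 9.66, 9.58, 9.59, 9.39 and 9.54 in control mice. Both groups covered nearly the same range, and the log2 difference was -0.037 (95% CI -0.15 to 0.079, adjusted p = 0.713, limma). The within-array log2 ratio of Dscam to Dscaml1 ran from 0.75 to 0.88 in Dp1Yey and from 0.25 to 0.52 in control mice, a difference of 0.44 (exact permutation p = 0.00794, two-sided, n = 5 each, and 0.00794 after adjustment over the 3 pairs).

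Jam2 had the largest fold of the 7 genes. Jam2 (Entrez 67374, 84774123 to 84826380 on Mmu16) had log2 values of 10.46, 10.60, 10.65, 10.43 and 10.68 in Dp1Yey and of 9.91, 10.07, 9.86, 9.93 and 9.97 in control mice. The Dp1Yey mice were spread more widely than for Ncam2 or Dscam, from 0.49 to 0.74 above the control mean. Dp1Yey mice averaged 10.57 ± 0.11 and controls 9.95 ± 0.076 (mean ± SD, 5 arrays per group), a log2 difference of 0.62 (95% CI 0.50 to 0.74, adjusted p = 0.000145, limma). Jam3, the partner that JAM2 binds (Entrez 83964, 27097384 to 27155421 on Mmu9), had log2 values of 7.94, 7.95, 7.90, 7.88 and 7.76 in Dp1Yey and of 7.998, 7.67, 7.99, 7.79 and 7.99 in control mice. Control replicate 2 was the lowest of the 10, the groups overlapped, and the log2 difference was -0.0012 (95% CI -0.15 to 0.14, adjusted p = 0.993, limma). The within-array log2 ratio of Jam2 to Jam3 ran from 2.52 to 2.93 in Dp1Yey and from 1.87 to 2.40 in control mice, a difference of 0.62 (exact permutation p = 0.00794, two-sided, n = 5 each, and 0.00794 after adjustment over the 3 pairs).

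**Figure D2:**
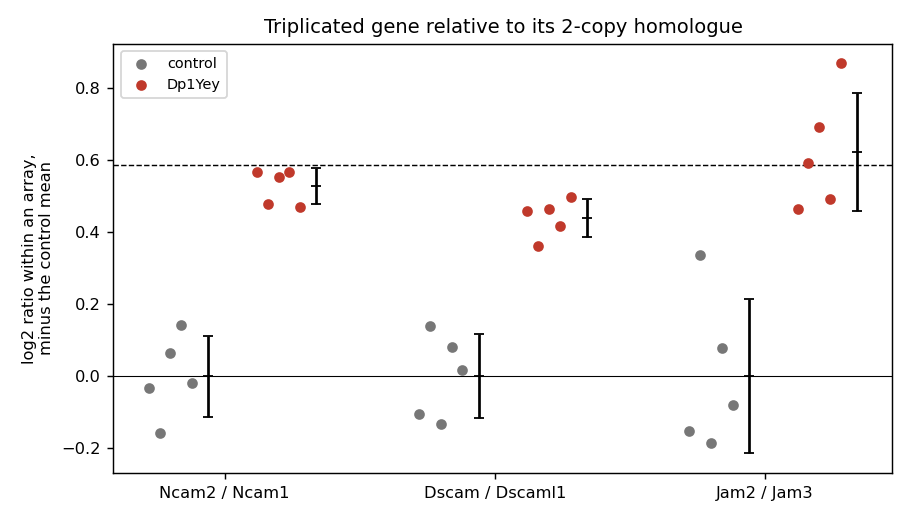
Log2 ratio of each triplicated gene to its 2-copy homologue within an array, after subtracting the mean of the 5 control arrays (y axis), with the mean and SD of each group and a dashed line at log2 of 1.5. All 5 Dp1Yey mice lie above all 5 control mice in the 3 pairs, by differences of 0.53 for Ncam2, 0.44 for Dscam and 0.62 for Jam2.

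In whole tissue, more cells of a type and more RNA per cell cannot be told apart. Endothelial cells are a known site of Jam2 expression. Of 11 measured endothelial markers 9 lay above control, beside 42.1% of all genes, and 0 passed limma. At an unadjusted p under 0.05, 2 were above and 0 below control, beside 8.75% higher and 10.8% lower of all genes. The log2 of the summed level of the 11 markers ranged from 12.55 to 12.69 in Dp1Yey and from 12.51 to 12.60 in control mice. Its part in the rise of Jam2 was not tested.

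Cxadr showed the lowest fold of the 4 triplicated genes. Cxadr (Entrez 13052, 78301226 to 78359785 on Mmu16) has no homologue in the set and was set beside none. Its log2 values were 6.41, 6.27, 6.47, 6.40 and 6.36 in Dp1Yey and 6.15, 6.14, 6.18, 6.23 and 6.22 in control mice. Dp1Yey replicate 2 was the lowest of its group and lay 0.041 above the highest control, so that the groups were apart by a narrow gap. Dp1Yey mice averaged 6.38 ± 0.074 and controls 6.18 ± 0.041 (mean ± SD, 5 arrays per group), a log2 difference of 0.20 (95% CI 0.11 to 0.28, adjusted p = 0.047, limma). The call was lost in most alternatives, among them the omission of any single array but Dp1Yey replicate 2 (adjusted p up to 0.123, log2 difference from 0.17 to 0.22), the array interquartile range as a covariate (0.319, log2 difference 0.18) and the omission of control replicates 1 and 2 together (0.145, 0.17). Its mean lay 0.83 log2 units above the background level, whereas those of Ncam2, Dscam and Jam2 lay 4.68 to 4.90 above it. The part of the low level in the low fold was not tested.

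CXADR is also known in epithelia such as the choroid plexus and ependyma. All 8 measured choroid plexus markers lay below control, whereas 42.1% of all genes lay above it. None of the 8 passed limma, and 5 were lower at an unadjusted p under 0.05, as were 10.8% of all genes. Clic6 and Kcne2, 2 of the 8, are themselves triplicated. The log2 of the summed level of the 8 markers ranged from 10.52 to 12.37 in Dp1Yey and from 11.03 to 13.60 in control mice. Ependymal markers gave 9.38 to 9.61 in Dp1Yey and 9.21 to 9.80 in control mice. Of 7 measured, 5 lay above control, again beside 42.1% of all genes, 0 were called, and Dynlrb2 lay at or below background. The part of choroid plexus and ependyma in the values of Cxadr was not tested.

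A gene present in 3 copies against 2 would reach 1.5-fold if its RNA followed its dose in proportion, and the next comparison tested the 4 genes against that value using limma's moderated errors and an adjustment over the 96 genes of the interval that exceeded background. Dscam (95% CI 1.23 to 1.42, adjusted p = 0.00398) and Cxadr (95% CI 1.08 to 1.22, adjusted p = 1.83e-06) lay significantly under 1.5-fold by limma. In this set 67.7% of the 96 genes lay significantly under 1.5-fold, and 1.04% above it. Ncam2 did not pass, though its interval ended just below 1.5 (1.34 to 1.496, adjusted p = 0.058). It passed, still under 1.5-fold, without control replicate 2 (adjusted p = 0.00843) and in 4 other alternatives. For Jam2 the interval held 1.5 (1.41 to 1.67, adjusted p = 0.58).

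**Figure D3:**
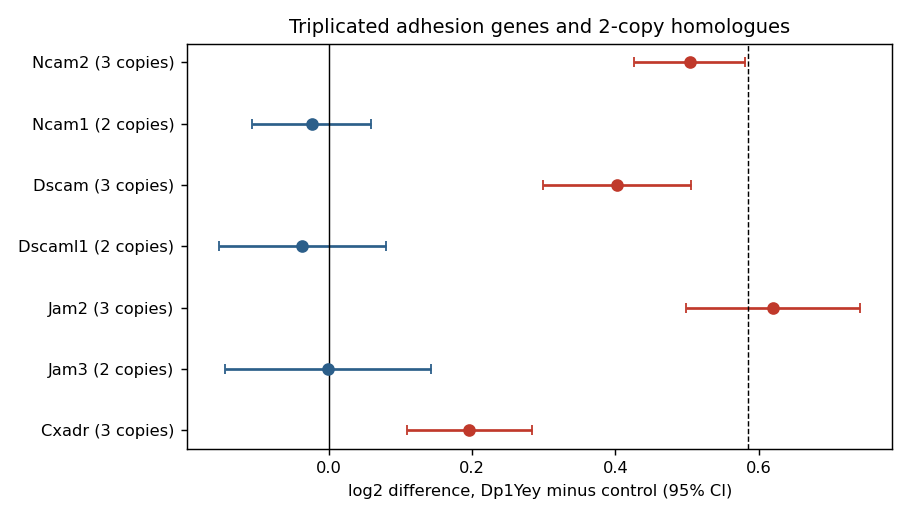
Log2 difference between 5 Dp1Yey and 5 control mice for each adhesion gene (x axis), with 95% confidence intervals from limma, red for 3 copies and blue for 2. The dashed line marks log2 of 1.5: the intervals of Ncam2, Dscam and Cxadr end below it, that of Ncam2 by a narrow margin, that of Jam2 spans it, and those of the 3 homologues span 0.

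The triplicated genes were also compared with each other by the same within-array ratio, in 6 pairs chosen after their values were seen. The change of Jam2 exceeded that of Cxadr by 0.42 log2 units and that of Dscam by 0.22, and the change of Ncam2 exceeded that of Cxadr by 0.31 (exact permutation p = 0.00794 each, 0.0159 adjusted over the 6 pairs, two-sided, n = 5 each). Without control replicates 1 and 2, these 3 differences were 0.48, 0.19 and 0.31 and missed the threshold (adjusted exact permutation p = 0.0536 each). With 5 against 3 mice no exact permutation p can fall below 0.0357 before adjustment. The miss therefore cannot tell weaker differences from fewer mice. The change of Dscam was 0.21 above that of Cxadr (exact permutation p = 0.0397, adjusted 0.0595, n = 5 each). Of 15 alternatives this difference passed in 1, without control replicate 2 (0.26, adjusted exact permutation p = 0.0238). Under new quantile normalisation the difference was 0.15 (adjusted exact permutation p = 0.219). Jam2 and Ncam2 differed by 0.12 (exact permutation p = 0.167, adjusted 0.2, n = 5 each) and Ncam2 and Dscam by 0.10 (exact permutation p = 0.238, adjusted 0.238, n = 5 each), and neither passed. The SD of the ratio was 0.12 in Dp1Yey and 0.13 in control mice for Jam2 to Ncam2, and 0.056 and 0.16 for Ncam2 to Dscam. Without control replicate 2 the difference between Ncam2 and Dscam was 0.036, and that between Jam2 and Ncam2 ran from 0.078 to 0.17 with 1 array left out (0.078 without Dp1Yey replicate 5).

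The 4 genes lie apart in the interval, which runs from 75540514 to 97962627 on Mmu16. From its start, Cxadr began at 2.76 Mb, Ncam2 at 5.66 Mb, Jam2 at 9.23 Mb and Dscam at 21.05 Mb. By fold, Jam2 ranked 6, Ncam2 23, Dscam 39 and Cxadr 68 among the 96 interval genes above background, whose median was 1.25-fold and whose quartiles lay at 1.09-fold and 1.41-fold.

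Neighbouring genes above background did not always carry the same fold. Ncam2 has the widest gaps: the nearest such genes are D16Ertd472e, 2624 kb before it, and Mrpl39 of the mitochondrial ribosome, 3094 kb after it, and both rose 1.42-fold, as Ncam2 did (95% CI 1.29 to 1.57 and 1.33 to 1.51). Mrpl39 is also the neighbour before Jam2. On the other side of Jam2, 1.49 kb away, Atp5j, a subunit of the ATP synthase, rose 1.26-fold (1.195 to 1.34, adjusted p = 0.000689, limma). Cxadr lies between Mir99ahg, a microRNA host gene at 1.02-fold (0.956 to 1.08), and D16Ertd472e. Dscam lies between Pcp4, a calmodulin regulator at 1.08-fold (1.02 to 1.15, adjusted p = 0.18), and Bace2, a secretase at 1.15-fold (1.04 to 1.27, adjusted p = 0.158), and neither of the 2 passed limma. Whether a gene differed from its neighbours was not tested.

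**Figure D4:**
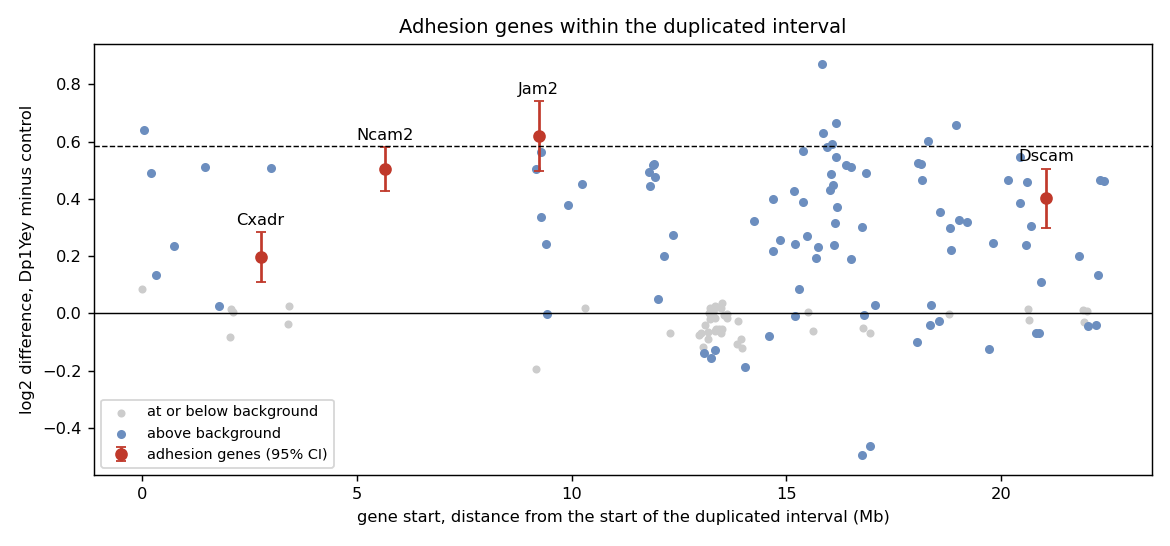
Log2 difference of each of the 143 measured genes of the duplicated interval (y axis) against its distance from the start of the interval in Mb (x axis), blue above background and grey at or below it. The 4 adhesion genes are red with 95% confidence intervals, from Cxadr at 0.20 to Jam2 at 0.62, and the dashed line marks log2 of 1.5.

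The interval holds 5 further adhesion or junction genes: the claudins Cldn8, Cldn14 and Cldn17 of tight junctions, Igsf5 (JAM4), a relative of the JAMs, and Itgb2l, related to integrin beta chains. None passed limma in either direction, at an adjusted or an unadjusted p under 0.05, and the rank statistic called none of the 4 of smallest p. Of the 5, 3 lay above background. Limma called 61.5% of the 96 interval genes above background higher, and 0.687% of all genes. At an unadjusted p under 0.05, 8.75% of all genes were higher and 10.8% lower. Cldn14 stood at 1.02-fold (95% CI 0.953 to 1.09), Igsf5 at 0.955-fold (0.880 to 1.04), Itgb2l at 0.953-fold (0.860 to 1.06), Cldn8 at 0.953-fold (0.894 to 1.02) and Cldn17 at 0.948-fold (0.894 to 1.01). Cldn8 and Cldn17 lay at or below background, where a fold of the gene cannot be read. Igsf5 (5.78 ± 0.056 in Dp1Yey and 5.85 ± 0.12 in control mice) and Itgb2l (6.22 ± 0.12 and 6.29 ± 0.12; SD, n = 5 each) lay less than 1 log2 unit above it. Cldn14 had log2 values of 6.99 ± 0.049 in Dp1Yey and 6.96 ± 0.092 in control mice.

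Partners and relatives in 2 copies were described by 6 lists, which held 129 measured genes. Limma called 0 of them, against 0.5% of all genes outside the interval in either direction, and at an unadjusted p under 0.05 there were 5 above and 11 below control. Over all genes 8.75% were higher and 10.8% lower at that level, so that these shares were no larger than the background. The rank statistic called 1 higher, the adaptor Nck1, and 1 lower, Flrt1, beside 491 higher and 198 lower among all 19938 genes. The median log2 difference of the 129 was -0.020, beside -0.015 over all genes, and 38% of them lay above control, beside 42.1% of all genes.

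Among 18 NCAM partners and enzymes of polysialylation, 7 lay above control and the median log2 difference was -0.017. Ptprz1, a receptor phosphatase that binds NCAM family members, stood at 0.904-fold (0.854 to 0.957, adjusted p = 0.0939, limma). Nfasc, an L1 family adhesion gene of the axon initial segment, stood at 1.11-fold (1.02 to 1.204), the kinase gene Fyn, which acts downstream of NCAM, at 1.05-fold (1.00 to 1.10) and the polysialyltransferase gene St8sia4 at 0.935-fold (0.860 to 1.02).

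Of 14 measured netrin receptors and DSCAM partners, 5 lay above control, with a median of -0.027. Nck1, an adaptor of the actin cytoskeleton, stood at 1.17-fold (1.05 to 1.30, adjusted p = 0.149, limma), and the netrin receptors Unc5a, Unc5d and Dcc at 0.929-fold, 0.916-fold and 1.07-fold. These 3 values leaned on control replicate 2: without it the log2 differences moved from -0.11 to -0.062 for Unc5a, from -0.13 to -0.063 for Unc5d and from 0.097 to 0.051 for Dcc. Of 22 CTX family relatives and junction scaffolds, a list of membrane proteins of cell contacts and of the scaffolds beneath them, 12 lay above control, with a median of 0.0082. The scaffolds Magi1 and Magi3 stood at 0.931-fold (0.873 to 0.993) and 1.06-fold (1.00 to 1.12), the tight junction scaffold Tjp1 at 1.06-fold and the polarity gene Pard3 at 0.954-fold. None of these passed.

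The lists of other adhesion genes showed values of like size. Of 28 other neuronal immunoglobulin adhesion genes 10 lay above control (median -0.013), with Thy1, an abundant glycoprotein of neurons, at 1.06-fold (1.01 to 1.12). Of 27 synaptic organisers 7 lay above control (median -0.054) and 4 were lower at an unadjusted p under 0.05, beside 10.8% of all genes: Flrt1, a ligand of latrophilins (0.848-fold, 0.767 to 0.938, adjusted p = 0.108, limma), Slitrk5 (0.917-fold), Ptprd (0.923-fold) and Lrrtm2 (0.889-fold, with a log2 difference of -0.17 that was -0.10 without control replicate 2). Flrt1 passed without control replicate 3 (adjusted p = 0.0471, log2 difference -0.29). Of 20 cadherins and protocadherins 8 lay above control (median -0.031) and 4 were lower at that level, again beside 10.8% of all genes: Celsr3 (0.860-fold, 0.781 to 0.947, adjusted p = 0.12), Pcdh17 (0.898-fold), Pcdh20 (0.915-fold) and Celsr1 (0.929-fold).

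**Figure D5:**
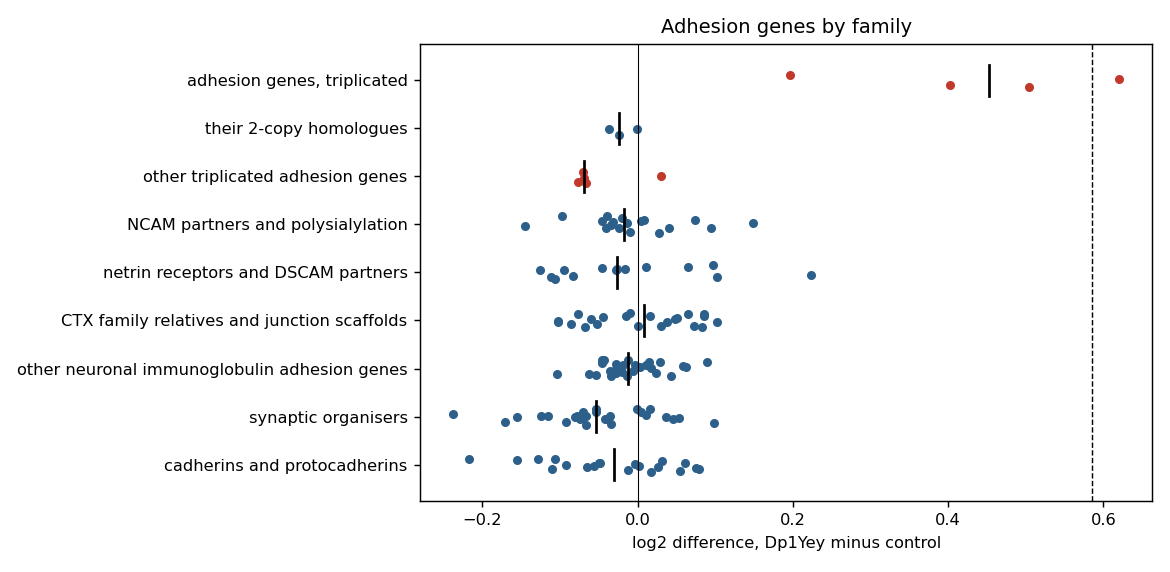
Log2 difference between Dp1Yey and control mice (x axis) for the adhesion genes and each list of related genes, 1 point per gene, red for triplicated genes and blue for genes in 2 copies, with a black bar at the median of each row and a dashed line at log2 of 1.5. Ncam2, Dscam, Jam2 and Cxadr lie between 0.20 and 0.62, the 5 other triplicated adhesion genes between -0.077 and 0.030, and the 129 genes of the 2-copy lists between -0.24 and 0.22.

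Variation among mice of one group was described by Pearson r over the 10 arrays after subtraction of each group mean, with no test. All arrays share their normalisation. With 10 arrays, high values are found for any gene among the 15162 genes above background that were compared. Among the 7 genes, the pairs of largest r in size were Ncam2 with Dscam (-0.82), Dscaml1 with Cxadr (-0.72), Dscam with Ncam1 (0.69), and Ncam1 with Jam2 (0.62) and with Cxadr (-0.62). Control replicate 2 had the lowest Ncam2 value (10.01) and the highest Dscam value (10.10) of the controls. How far the r of Ncam2 with Dscam leaned on that array was not tested. The triplicated genes and their homologues gave -0.41 for Ncam2 and Ncam1, 0.43 for Dscam and Dscaml1 and -0.56 for Jam2 and Jam3. The genes most like Ncam2 were Dusp3 (r = 0.96), Nap1l4 (0.94) and Lyrm1 (0.93). Those most like Dscam were Lrrc41, Cracdl and Trim35 (each 0.98), and those most like Jam2 were Oasl1 (0.94), Gpr37l1 (0.94) and Sowahd (0.93). For Cxadr they were the cadherin gene Cdh1 (0.89), Zfp622 (0.89) and Sh3pxd2b (0.88), for Ncam1 Prr18, Cd81 and Sema6a (0.97 to 0.99), for Dscaml1 Atrn, Ampd2 and Slitrk3 (0.95 to 0.96) and for Jam3 Aamp, AI837181 and Tmem231 (0.97 to 0.99). None of these 21 lies in the duplicated interval, which held only 96 of the 15162 genes compared.

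All 12 hippocampal markers, among them Prox1 of dentate granule cells and Wfs1 and Fibcd1 of CA1, lay above background, but so did 15162 of the 19938 genes and most markers of other tissues (4 of 4 for striatum, 8 of 8 for choroid plexus, 7 of 8 for thalamus and habenula, 3 of 3 for blood), so that this sets no limit on tissue at the edge of the dissection. Over 12 marker lists with 101 measured genes, 2 genes were called higher (Npy and Tac2) and 0 lower, beside 0.687% called higher of all genes. All 9 interneuron markers and 8 of 9 microglial markers lay above control, beside 42.1% of all genes. Among them only Npy was called. The median log2 differences were 0.077 and 0.075, and the smallest interneuron difference was 0.00047. The interquartile range of the arrays was wider in Dp1Yey by 0.074 log2 units (exact permutation p = 0.0556, two-sided, n = 5 each), and with it as a covariate Ncam2, Dscam and Jam2 kept their calls.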

How the data were processed

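RNA of 10 hippocampi was hybridised to 1 array each. Per the labels and methods, the authors background-corrected, quantile-normalised and summarised the arrays by RMA, and the deposited values are log2 intensities per probe set. The submitters' notes name RMA, limma and mm10. The set of arrays that entered each normalisation is not stated in the labels or methods. RMA values carry no read depth, so that the number of arrays limits the precision, and quantile normalisation sets the arrays it joins to 1 distribution, so that folds are relative to the rest of the array.

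Of 35556 probe sets, 21789 had 1 gene symbol and 1621 several. A probe set with several symbols (1 of them naming Nme2 and Dscaml1) named no gene. The probe set with the highest mean represented a gene, which left 19938 genes. Symbols and positions came from RefSeq GRCm38.p6 through Entrez identifiers (19855 genes placed). Groups came from sample titles. Dp1Yey and control were compared with limma 3.58.1 in R 4.3.3 (lmFit, eBayes), two-sided, with Benjamini-Hochberg adjustment over all genes and a threshold of 0.05. Within-array ratios were compared by exact permutation. The code was tested on simulated data.

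The study called genes with a fold change rank statistic. A rewritten version (25 array pairs, trimming 0.25 from each end, tails of 0.025 and 0.975) was an alternative, beside new quantile normalisation, median centring, other probe set rules, a filter, an intensity trend, array weights, the replicate block, the spread of each array (interquartile range) as a covariate and the omission of arrays. Named genes were the 7 adhesion genes, the nearest interval genes above background on both sides, up to 4 genes of smallest p of each list and the 3 genes of highest r, besides Cldn14, Ntn1 and the markers Npy, Tac2, Dynlrb2, Clic6, Kcne2, Prox1, Wfs1 and Fibcd1, added after their values were seen. The members and lists were chosen with earlier results of these data known. Protein sequences were not used here.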

Additional observations from a re-analysis of the deposited data

Results flagged for a closer look

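None of the 7 adhesion genes and none of their ratios held a mouse that stood apart from its group. Of 88 groups of 5 mice examined, 5 had a mouse whose gap to the nearest other exceeded 0.71 of the whole range, and chance gives about 1 in 20. These were Dp1Yey replicate 3 for Itgb2l (log2 value 6.44, others 6.14 to 6.21), Dp1Yey replicate 5 for Lrrtm2 (10.74, others 10.84 to 10.88), Dp1Yey replicate 2 for Nfasc (10.23, others 9.96 to 10.04), and control replicate 2 for Unc5a (10.42, others 10.16 to 10.23) and Unc5d (8.20, others 7.84 to 7.92).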

How the results depend on the processing

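The calls of Ncam2, Dscam and Jam2 held in every alternative, with log2 differences of 0.47 to 0.52, 0.38 to 0.46 and 0.59 to 0.69, and the rank statistic called all 4 triplicated genes higher. Cxadr kept its direction (0.17 to 0.24) and lost its call with an intensity trend (0.20, adjusted p = 0.058), the replicate block (0.20, 0.101), the interquartile range as a covariate (0.18, 0.319) and without control replicates 1 and 2 (0.17, 0.145). With 1 array left out it ran from 0.17 to 0.22 and passed in 1 of 10 cases. None of the 3 homologues was called in any alternative. Their sign turned without control replicates 1 and 2 for Ncam1 (0.015) and Dscaml1 (0.0088), and for Jam3 with median centring (0.0074) and with 1 array left out (-0.055 to 0.031). Relative to log2 of 1.5, Ncam2 passed under new quantile normalisation (-0.10, adjusted p = 0.0227), array weights (-0.090, 0.0196), the covariate (-0.11, 0.0305) and without control replicates 1 and 2 (-0.11, 0.016), and ran from -0.11 to -0.065 with 1 array left out. Dscam and Cxadr stayed significantly under 1.5-fold throughout. The ratios to homologues kept their differences with the replicate block (0.53, 0.44 and 0.62), where 5 pairs of mice cannot go below an exact permutation p of 0.0625. The sample titles do not say whether the replicate numbers pair the mice. Deviations of same-numbered mice correlated at -0.33 to 0.22, and 1 of 5 Dp1Yey mice correlated best with its own number. Such correlations cannot settle whether the numbers mark pairs. Among the 129 2-copy list genes, 0 were called either way, against 1 higher and 1 lower by the rank statistic, 1 higher (Ntn1) without control replicates 1 and 2, and 0 to 1 lower with 1 array left out. The sign turned with the covariate for Igsf5 (0.018) and Itgb2l (0.014) and with quantile normalisation for Igsf9 (0.0068). Over all genes, 137 were called higher and 22 lower, against 90 and 4 with the replicate block, 46 and 2 with the covariate, 491 and 198 by the rank statistic, 65 to 166 and 3 to 70 with 1 array left out, and 6 lower without control replicates 1 and 2, 46 with new quantile normalisation or array weights and 36 with an intensity trend. The causes were not tested.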
